A study of Mus musculus with 3 samples.

Results

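Glucocorticoid signalling in mouse epididymal fat was followed through 8 genes of the 29625 listed in the deposited tables: the receptors Nr3c1 and Nr3c2, the activating enzyme Hsd11b1, and the responsive genes Fkbp5, Tsc22d3, Sgk1, Zbtb16 and Pdk4. They were picked by name after their levels in these same tables had been seen, so the levels and ratios below describe them and support no claim about their choice. All 8 were counted in each of the 3 libraries of nuclei, Ctrl, Mid_Ob and Ob. Every library came from the fat around the epididymis of 8 male C57BL/6J mice, combined before sequencing. The mice were bought at 5 weeks of age and kept for 1 week before the diets began. Ctrl mice ate ordinary feed, and the other groups ate feed with 60% fat until body weight passed the control mean by over 10% in Mid_Ob or over 20% in Ob. All groups went without water for 12 h, were anaesthetised with pentobarbital and were bled before the fat was taken. The sources used here do not state the hour or age at sampling or the level of corticosterone.

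Corticosterone, the main glucocorticoid of mice, enters cells and binds the glucocorticoid receptor, encoded by Nr3c1. The receptor waits in the cytoplasm in a complex with heat shock protein 90 and its helpers, moves to the nucleus when it binds the hormone, and there raises or lowers transcription at its response elements. The mineralocorticoid receptor, encoded by Nr3c2, binds the same hormone with higher affinity. Hsd11b1 encodes the enzyme that turns inactive 11-dehydrocorticosterone back into corticosterone inside fat and liver cells. Fkbp5 encodes a co-chaperone that lowers the affinity of the receptor for the hormone and is itself strongly induced, which closes a feedback loop. Tsc22d3 encodes the anti-inflammatory protein GILZ, Sgk1 a kinase that controls ion transport and survival, Zbtb16 the transcription factor PLZF, and Pdk4 a mitochondrial kinase that turns glucose oxidation down in favour of fatty acids. In fat, glucocorticoids promote adipocyte differentiation and change lipid storage and release.

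The sequence that the receptor reads was looked for in the promoters, since most of these genes are known targets. RefSeq promoter windows of GRCm38.p6, from 250 bases before to 50 bases after a transcript start, were at hand for 6 of the 8 genes, with 13 windows in all. Zbtb16 and Nr3c1 had none. The palindromic element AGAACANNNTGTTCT, which reads the same on both strands, occurred in 3 of all 32851 windows (0.00913%), and 1 of these belonged to Sgk1. Its half-site TGTTCT, counted on both strands and also inside the full element, occurred in 6233 windows (18.97%). Sgk1 and Tsc22d3 had several windows each, at different transcript starts, and some held no match. Among the windows of the 8 genes the half-site was present in 3 of Sgk1 and 1 of Tsc22d3. The forkhead motif GTAAACA, counted on both strands, occurred in 1199 windows (3.65%), among them the window of Hsd11b1. The windows of Fkbp5, Pdk4 and Nr3c2 held none of these letters, which says nothing of elements in introns or farther away.

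Of these windows, 4 are shown for the bases before the start, written 5′ to 3′ on the strand of the gene with matched motifs in capitals. They are chr10:21993640-21993889 on the plus strand for Sgk1, with the full element at 21993701 to 21993715 and a further half-site, chrX:140600523-140600772 on the minus strand for Tsc22d3, with a half-site that begins 185 bases before the start, chr1:193242361-193242610 on the minus strand for Hsd11b1, with the forkhead motif 138 bases before the start, and chr17:28486150-28486399 on the minus strand for Fkbp5, with no match.
Sgk1: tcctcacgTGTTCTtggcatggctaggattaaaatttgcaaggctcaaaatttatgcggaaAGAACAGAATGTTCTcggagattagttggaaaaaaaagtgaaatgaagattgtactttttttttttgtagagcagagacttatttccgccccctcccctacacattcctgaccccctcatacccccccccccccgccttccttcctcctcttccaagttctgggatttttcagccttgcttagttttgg
Tsc22d3: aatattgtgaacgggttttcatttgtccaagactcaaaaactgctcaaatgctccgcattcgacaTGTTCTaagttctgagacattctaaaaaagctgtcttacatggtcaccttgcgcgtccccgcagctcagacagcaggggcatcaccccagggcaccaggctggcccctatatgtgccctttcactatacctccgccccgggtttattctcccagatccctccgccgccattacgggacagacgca
Hsd11b1: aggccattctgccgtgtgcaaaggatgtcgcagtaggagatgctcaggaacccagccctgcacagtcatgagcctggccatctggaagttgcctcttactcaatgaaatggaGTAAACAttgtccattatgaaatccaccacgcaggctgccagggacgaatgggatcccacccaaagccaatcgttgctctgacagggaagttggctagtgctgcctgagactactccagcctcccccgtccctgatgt
Fkbp5: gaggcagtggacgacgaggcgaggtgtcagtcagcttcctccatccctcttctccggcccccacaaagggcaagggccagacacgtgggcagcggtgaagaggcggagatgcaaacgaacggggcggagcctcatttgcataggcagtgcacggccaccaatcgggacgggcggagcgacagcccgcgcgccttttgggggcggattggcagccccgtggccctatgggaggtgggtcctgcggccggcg

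In the GENCODE M21 annotation of GRCm38, the genes span chr9:48654297-48836222 (Zbtb16, minus strand), chr17:28399094-28517527 (Fkbp5, minus strand), chrX:140539528-140600659 (Tsc22d3, minus strand), chr10:21882184-21999903 (Sgk1, plus strand), chr8:76899442-77245012 (Nr3c2, plus strand), chr6:5483351-5496309 (Pdk4, minus strand) and chr1:193221634-193264075 (Hsd11b1, minus strand). Genes on the other strand overlap Hsd11b1 (Lamb3 and 4930570N18Rik), Fkbp5 (AC154912.1 and Gm22146) and Nr3c2 (Gm10649 and Gm24838), genes on the same strand overlap these 3 as well, and the sources used here do not say how the authors' counting treated strand.

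The tables give a level for each gene in each cluster of nuclei, and whole counts of UMIs, which stand for single transcript molecules, were recovered from them. The Ctrl library held 53980929 UMIs over 14 clusters, Mid_Ob 57665213 over 11 and Ob 111595518 over 21. Levels are given as CPM, the counts of a gene per 1000000 UMIs of the same cluster, class of clusters or library, and are compared between stages or clusters for the same gene but never between genes. Ratios carry a 95% interval in parentheses, which covers counting error only, as PCR copies and free RNA are not accounted for. With 1 library per stage there was no test and no error between mice. A gene is called higher or lower at a stage when its CPM differed by over 1.5-fold with at least 50 counts in the pair. In these bulk sums, fewer nuclei of a type and less RNA per nucleus cannot be told apart.

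Clusters were named from marker genes, and the names are rebuilt and can differ from those of the study. Adipocyte-like clusters made up 25.2% of the Ctrl library, 46.9% of Mid_Ob and 55.4% of Ob by UMIs, and all 16 adipocyte markers were counted there, with a sum of 23322, 27108 and 34474 CPM. Macrophage-like, mesothelial-like and lymphocyte-like clusters were present in all 3 libraries, fibroblast or progenitor-like and endothelial-like ones in Mid_Ob and Ob. The Ctrl library also held germ cell-like (26.3%), testis somatic-like (15.4%) and epididymal epithelium-like (5.32%) clusters, and Mid_Ob held epididymal epithelium-like ones at 30.3%. The library level of a gene therefore mixes fat with neighbouring organs, and levels within classes are given for every gene. Markers of epididymal epithelium reached 2520 CPM in the adipocyte-like cluster of Mid_Ob, beside 303 in Ctrl and 78.9 in Ob.

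**Figure D1:**
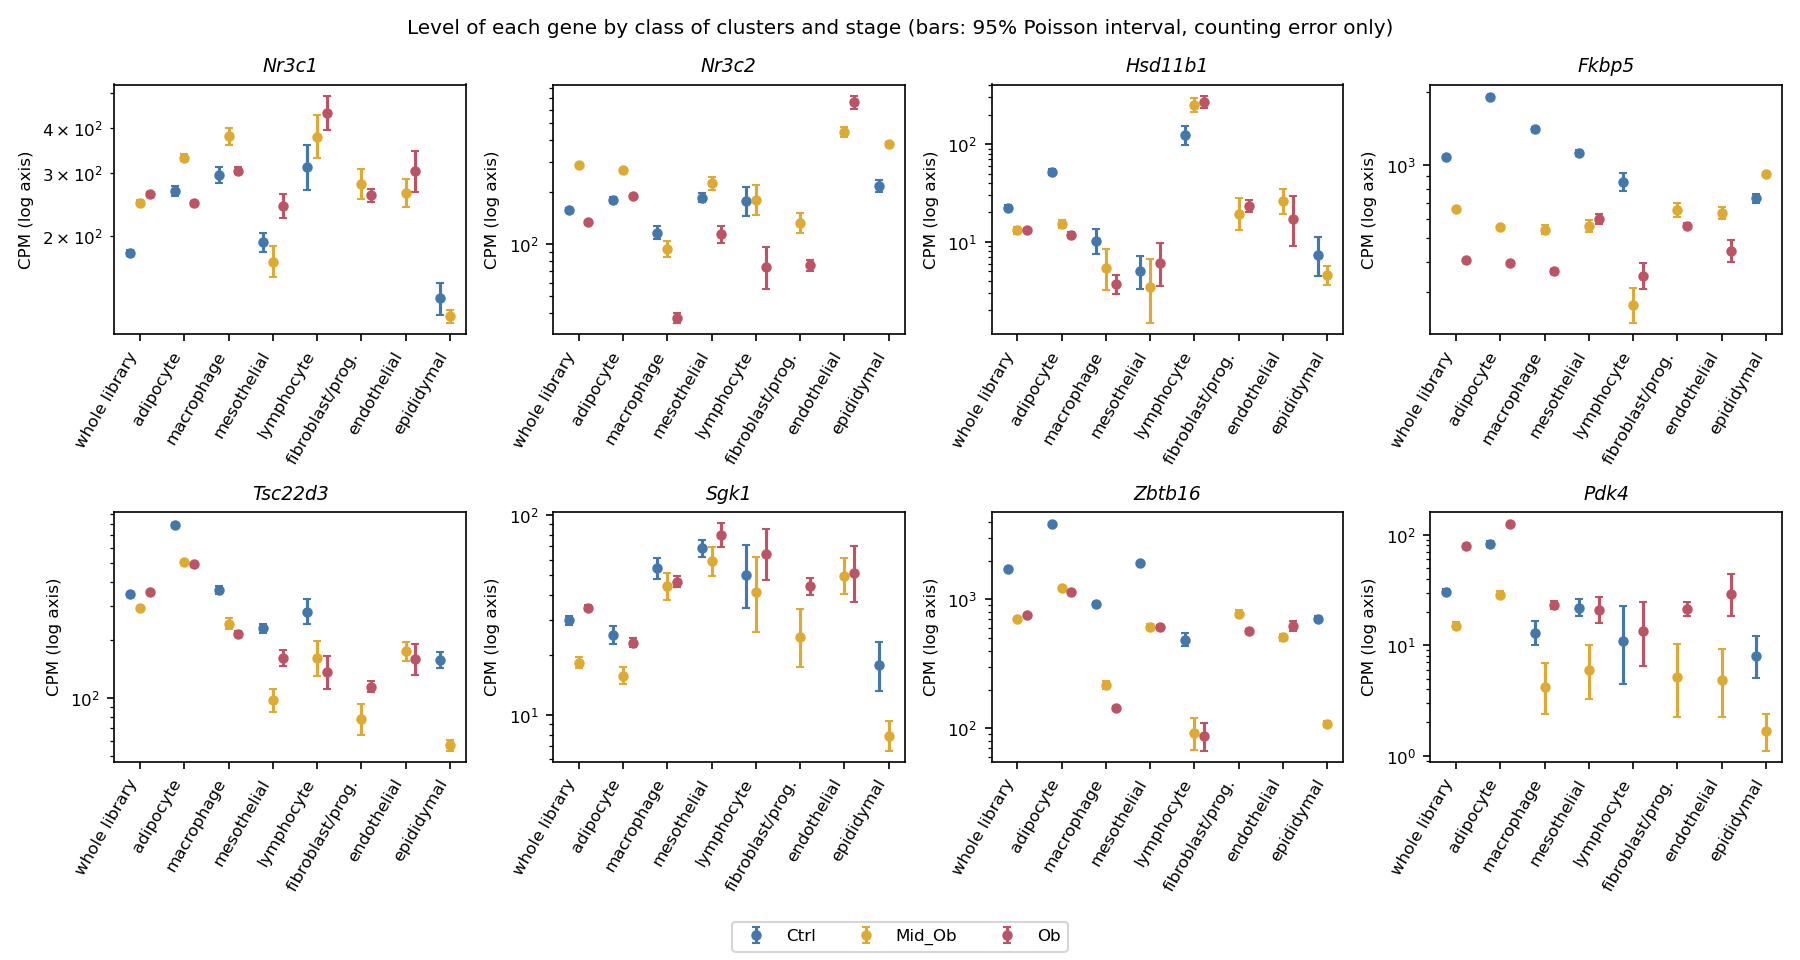
Level of each of the 8 genes in CPM (log axis) in the whole library and in 7 classes of clusters, with 1 point per library and bars for the 95% Poisson interval. The Ctrl points of Zbtb16 and Fkbp5 lie above both high fat diet libraries in the adipocyte, macrophage, mesothelial and lymphocyte classes, while those of Nr3c1 do not. The Zbtb16 points of the macrophage and lymphocyte classes are not read as expression of these cells. In the epididymal class Fkbp5 is at 730 CPM in Ctrl and 917 in Mid_Ob. A count of 0 (Pdk4 in lymphocyte-like nuclei of Mid_Ob) cannot be drawn on a log axis.

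The glucocorticoid receptor gene Nr3c1 was counted in every cluster and varied least between the stages within fat cells. In adipocyte-like clusters it stood at 267 CPM in Ctrl, while Mid_Ob had 330 and Ob 247. The ratio was 1.23 (1.19 to 1.28) for Mid_Ob over Ctrl and 0.92 (0.89 to 0.96) for Ob over Ctrl, neither past 1.5-fold. Lymphocyte-like and macrophage-like classes were the 2 highest in Ctrl and Mid_Ob, and in Ob the lymphocyte-like class led, followed by dividing cell-like nuclei at 336 CPM. Macrophage-like clusters gave 296, 378 and 304 CPM and lymphocyte-like clusters 311, 378 and 440 CPM, in the order of Ctrl, Mid_Ob and Ob. The top cluster was macrophage-like in each library, with 314, 378 and 502 CPM, but its interval overlapped that of the lymphocyte-like cluster behind it each time. Germ cell-like clusters of Ctrl lay at the bottom, from 69.7 to 101 CPM. Over the whole libraries Nr3c1 read 179, 248 and 262 CPM, all ratios within 1.5-fold, although scaling by the median gene ratio put Mid_Ob over Ctrl at a log2 of 0.62 and Ob over Ctrl at 0.89.

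Nr3c2, the mineralocorticoid receptor gene, fell in macrophage-like and lymphocyte-like clusters of Ob but not in adipocyte-like ones. Adipocyte-like clusters stood at 180 CPM in Ctrl, while Mid_Ob had 268 and Ob 190, and the 1.49-fold (1.42 to 1.56) higher level in Mid_Ob stayed just under the limit, which it passed (log2 0.66) when scaled by the median gene ratio. Macrophage-like clusters went from 117 CPM in Ctrl and 93.8 in Mid_Ob to 37.6 in Ob, which was 3.11-fold (2.79 to 3.47) lower than Ctrl. These were 65.0%, 35.1% and 19.8% of the adipocyte-like level, beside 20.9%, 14.03% and 22.1% for the summed adipocyte markers. The Ob value is therefore not read as expression of these cells. Without cluster 9 of Ctrl, which held 160 CPM of it against 69.5 in cluster 11, the log2 difference shrank from -1.64 to -0.89, and that of Mid_Ob over Ctrl turned from -0.32 to 0.43. Lymphocyte-like clusters gave 177, 181 and 73.7 CPM, so Ob was 2.40-fold (1.73 to 3.38) lower than Ctrl. Mesothelial-like clusters gave 186, 225 and 115 CPM, and the 1.63-fold (1.43 to 1.85) lower level in Ob than in Ctrl became a log2 of -0.57 without cluster 3 of Ctrl, short of the limit.

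The highest level of Nr3c2 in the series was outside fat cells and immune cells. Cluster 21 of Ob, endothelial-like with the lymphatic genes Prox1, Flt4 and Mmrn1 in the lead, held 1048 CPM (953 to 1151), while cluster 16, the other endothelial-like cluster, held 170 CPM. The next cluster of Ob, cluster 4 of the adipocyte-like class, stood at 239 CPM. The endothelial-like class read 446 CPM in Mid_Ob and 660 in Ob, within 1.5-fold, and the log2 ratio was 1.23 for cluster 21 alone and -1.39 for cluster 16 alone. In Mid_Ob, epididymal epithelium-like cluster 2 led with 613 CPM (595 to 630). Epididymal clusters carried 40.1% of the Nr3c2 counts of that library. The 1.82-fold (1.77 to 1.87) higher library level of Mid_Ob over Ctrl dropped to a log2 of 0.50, under the limit, when neither library kept its testis and epididymis clusters.

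**Figure D2:**
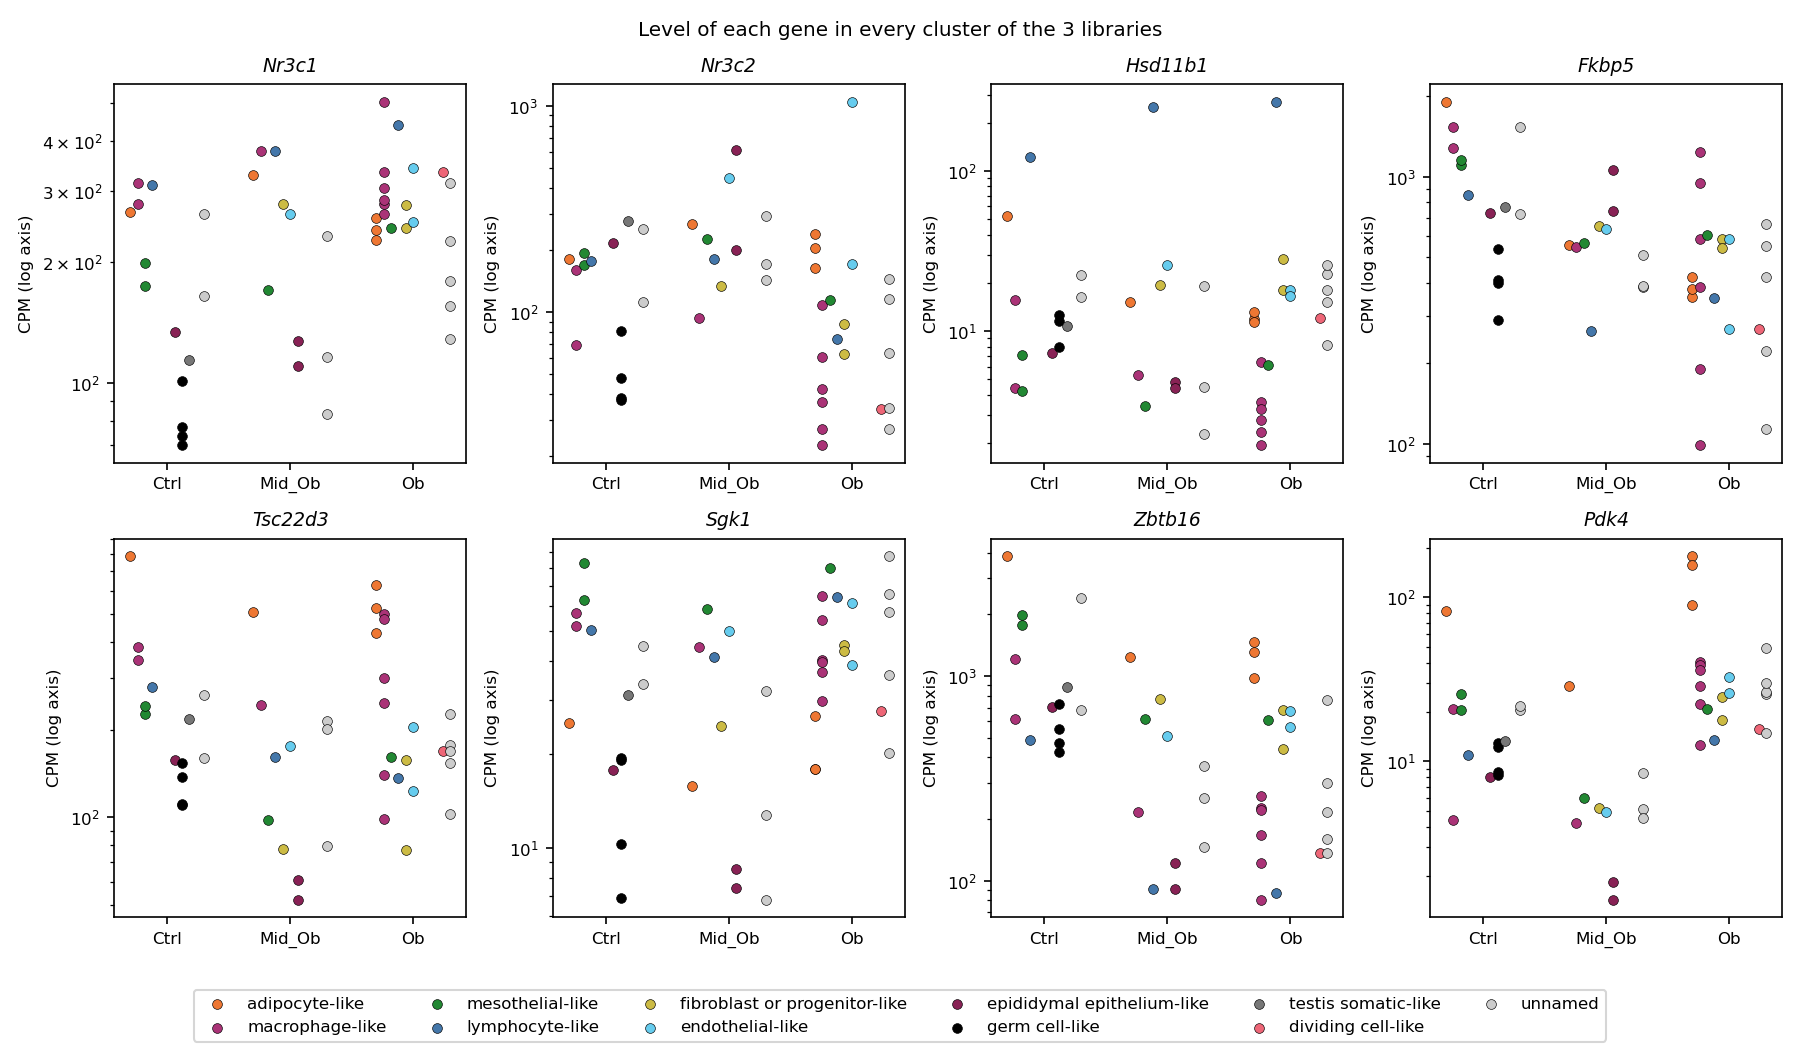
CPM of each gene (log axis) in each of the 46 clusters, grouped by library and coloured by class. Hsd11b1 has its highest point in the lymphocyte-like cluster of each library, Nr3c2 in a single endothelial-like cluster of Ob at 1048 CPM, and Fkbp5 of Ob is spread over the macrophage-like clusters from 98.7 to 1232 CPM. Counts of 0 (Hsd11b1 in cluster 12 of Ctrl, Pdk4 in cluster 10 of Mid_Ob) cannot be drawn.

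Hsd11b1, the gene of the enzyme that regenerates active glucocorticoid, was lower in adipocyte-like clusters under the high fat diet. It stood at 52.1 CPM in Ctrl, 15.2 in Mid_Ob and 11.7 in Ob. Mid_Ob was 3.43-fold (3.03 to 3.88) and Ob 4.46-fold (4.01 to 4.95) lower than Ctrl, and the 3 adipocyte-like clusters of Ob, from 11.3 to 13.1 CPM, all lay below both other libraries. Its highest level in each library was in lymphocyte-like nuclei, with 122 CPM (96.7 to 153) in Ctrl, 251 (211 to 296) in Mid_Ob and 271 (235 to 311) in Ob. There Mid_Ob was 2.05-fold (1.54 to 2.74) and Ob 2.21-fold (1.70 to 2.91) higher than Ctrl, opposite to the adipocyte-like clusters. The summed lymphocyte markers of these clusters also rose, from 3005 CPM in Ctrl to 5833 in Mid_Ob and 8678 in Ob, with all 12 counted each time, and their part in the result was not tested. Macrophage markers over 2-fold numbered 12 in the lymphocyte-like cluster of Ctrl, beside 2 in Mid_Ob and 0 in Ob, and their part was not tested either. Lymphocyte-like clusters held only 1.18%, 0.969% and 0.668% of UMIs but 6.46%, 18.5% and 13.7% of the Hsd11b1 counts.

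In the high fat diet libraries Hsd11b1 also read above its adipocyte-like level in endothelial-like clusters, at 26.0 CPM (48 counts) in Mid_Ob and 17.2 (13 counts) in Ob, and in fibroblast or progenitor-like ones. The intervals of endothelial-like Ob (9.16 to 29.4) and fibroblast or progenitor-like Mid_Ob (13.1 to 27.8) include the adipocyte-like level of their library. Macrophage-like clusters read 10.3, 5.35 and 3.71 CPM, and the 1.92-fold (1.11 to 3.45) lower value of Mid_Ob than Ctrl rested on cluster 9 of Ctrl, without which the log2 ratio was 0.28. For Ob over Ctrl the log2 ratio of -1.47 became -0.25 without that cluster and -2.07 without cluster 11. The macrophage-like level of Ctrl was 19.7% of the adipocyte-like one, beside 20.9% for the summed adipocyte markers. That Ctrl value is therefore not read as expression of these cells. Fibroblast or progenitor-like clusters of Ob held 23.5 CPM, from 18.01 to 28.4, and that of Mid_Ob 19.5. Mesothelial-like clusters held 4.99, 3.42 and 6.15 CPM with 8 to 28 counts, too few to call. At the library level Hsd11b1 was 1.71-fold (1.56 to 1.87) lower in Mid_Ob than in Ctrl, at 13.1 against 22.4 CPM, but giving every cluster the same weight turned the log2 ratio from -0.77 to 0.62.

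Fkbp5, the receptor's feedback co-chaperone, fell from Ctrl in every class that the 3 libraries shared. Adipocyte-like clusters went from 1905 CPM in Ctrl to 556 in Mid_Ob and 396 in Ob, which was 3.43-fold (3.36 to 3.50) and 4.82-fold (4.73 to 4.90) lower. Macrophage-like clusters went from 1407 to 544 and 366 CPM, 2.59-fold (2.46 to 2.72) and 3.84-fold (3.72 to 3.97) lower than Ctrl. Neither cluster of Ctrl overlapped Mid_Ob, at 1274 and 1527 CPM, but the clusters of Ob ran from 98.7 in cluster 2 to 1232 in cluster 20, and with equal weight for each the Ob over Ctrl log2 ratio of -1.94 shrank to -1.29. Mesothelial-like clusters read 1121, 562 and 603 CPM, and lymphocyte-like clusters 853, 265 and 351 CPM. Mid_Ob was lower than Ctrl by 1.996-fold (1.88 to 2.12) in the first and 3.22-fold (2.68 to 3.89) in the second. The lymphocyte-like cluster of Ctrl carried macrophage markers, as given above, and their part was not tested. Ob was within 1.5-fold of Mid_Ob in each class, though in macrophage-like clusters the log2 ratio ran from -0.89 without cluster 20 of Ob to 0.08 with equal weight for each cluster.

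The cluster with the most Fkbp5 differed in class between the libraries. In Ctrl the adipocyte-like cluster led, and its interval of 1882 to 1928 CPM lay above that of every other cluster. In Mid_Ob the epididymal epithelium-like clusters 3 and 2 led with 1054 and 744 CPM and carried 42.0% of the counts. In Ob the macrophage-like clusters 20 and 11 led with 1232 (1180 to 1286) and 947 CPM, while the adipocyte-like clusters stood at 353, 378 and 420 CPM. Summed over its clusters, the macrophage-like class of Ob held 366 CPM, and the mesothelial-like class led with 603, ahead of the fibroblast or progenitor-like class at 565. Macrophage-like clusters 1 and 2 of Ob, with 190 and 98.7 CPM, showed 6 and 3 of the 14 macrophage markers over 2-fold. That fold is over the median of the other clusters of Ob, which include further macrophage-like ones.

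Tsc22d3 was an adipocyte-weighted transcript that fell once. In adipocyte-like clusters it measured 788 CPM in Ctrl, 506 in Mid_Ob and 497 in Ob, so Mid_Ob was 1.56-fold (1.52 to 1.60) and Ob 1.58-fold (1.55 to 1.62) lower than Ctrl. Scaling by the median gene ratio left both at a log2 of -0.55, short of the limit, and the second was -0.41 without cluster 5 of Ob. The adipocyte-like clusters carried 57.8%, 81.3% and 77.5% of all its counts. Macrophage-like clusters read 364, 243 and 216 CPM, and Ob was 1.69-fold (1.60 to 1.78) lower than Ctrl, which became a log2 of -0.42 without cluster 2 of Ob, whose level was 98.5 CPM beside 500 in cluster 11. In mesothelial-like clusters Tsc22d3 fell 2.36-fold (2.05 to 2.73), from 231 to 97.6 CPM, and came back to 161 CPM in Ob, 1.65-fold (1.41 to 1.95) above Mid_Ob. These mesothelial-like levels were 29.3%, 19.3% and 32.4% of the adipocyte-like ones, beside 11.3%, 10.4% and 14.97% for the summed adipocyte markers. Lymphocyte-like clusters fell from 281 to 161 and 137 CPM. These were 35.6%, 31.8% and 27.5% of the adipocyte-like levels, beside 16.5%, 13.6% and 17.7% for the markers. The part of adipocyte RNA in both classes was not tested.

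Sgk1, with the full element shown above in a single one of its promoter windows, was spread differently from the other responsive genes. Its top clusters were mesothelial-like in Ctrl (82.7 CPM) and Mid_Ob (59.0 CPM) and unnamed cluster 6 in Ob (87.2 CPM), with intervals that overlapped the next cluster each time. Adipocyte-like clusters, at 25.2, 15.8 and 23.1 CPM, lay below the median cluster of their library, which was 32.4, 24.7 and 40.3 CPM. Mid_Ob was 1.60-fold (1.38 to 1.85) lower than Ctrl there, and Ob differed from Ctrl by less than the counting error (ratio 0.92, 0.81 to 1.03). Macrophage-like clusters gave 54.4, 44.2 and 46.6 CPM and mesothelial-like clusters 68.5, 59.0 and 79.9 CPM, all within 1.5-fold between the stages. Fibroblast or progenitor-like clusters rose 1.79-fold (1.28 to 2.57), from 24.7 CPM in Mid_Ob, with 38 counts, to 44.2 in Ob.

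Zbtb16, the PLZF gene, was lower than in Ctrl in both high fat diet libraries in adipocyte-like and mesothelial-like clusters. In adipocyte-like clusters it went from 3850 CPM in Ctrl to 1233 in Mid_Ob and 1135 in Ob, which was 3.12-fold (3.08 to 3.17) and 3.39-fold (3.35 to 3.43) lower. The 3 clusters of Ob, at 977, 1316 and 1469 CPM, lay on both sides of Mid_Ob and all far below Ctrl. The next highest cluster of Ctrl was unnamed cluster 4, at 2394 CPM, which carried markers of both endothelial cells and fibroblasts. Mesothelial-like clusters went from 1924 to 614 and 607 CPM, with both clusters of Ctrl, at 1774 and 1981 CPM, above the others. In macrophage-like and lymphocyte-like clusters of Ctrl the level of Zbtb16 was 24.04% and 12.7% of that in adipocyte-like nuclei, beside 20.9% and 16.5% for the summed adipocyte markers, so the values there are not read as expression of these cells. Macrophage-like clusters went from 926 to 217 and 143 CPM, 4.26-fold (3.95 to 4.60) and 6.46-fold (6.17 to 6.77) lower, and without cluster 9 of Ctrl, which held 1206 CPM, the log2 differences of -2.09 and -2.69 became -1.50 and -2.11. Lymphocyte-like clusters went from 488 to 91.3 and 87.1 CPM, 5.34-fold (3.96 to 7.33) and 5.60-fold (4.27 to 7.43) lower.

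Between the high fat diet libraries Zbtb16 moved little. Ob was within 1.5-fold of Mid_Ob in adipocyte-like (ratio 0.92, 0.91 to 0.93), mesothelial-like (0.99, 0.92 to 1.06), lymphocyte-like, fibroblast or progenitor-like and endothelial-like clusters. The exception was the macrophage-like class, 1.52-fold (1.40 to 1.64) lower, a call that was lost without cluster 1 or cluster 2 of Ob (log2 -0.55 and -0.32). Fibroblast or progenitor-like clusters held 775 CPM in Mid_Ob and 569 in Ob, where cluster 8 stood at 681 and cluster 19 at 442. Endothelial-like clusters held 507 and 624 CPM. The endothelial-like values were 41.1% and 55.0% of the adipocyte-like level, beside 22.5% and 40.0% for the summed adipocyte markers. The part of adipocyte RNA there was not tested. At the library level Zbtb16 read 1707, 702 and 755 CPM.

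Pdk4, the fuel-switching kinase, went down and then up. In adipocyte-like clusters it stood at 82.1 CPM in Ctrl, 28.7 in Mid_Ob and 124 in Ob. Mid_Ob was 2.86-fold (2.61 to 3.14) lower than Ctrl, and Ob was 4.32-fold (4.01 to 4.65) higher than Mid_Ob. The 3 clusters of Ob ran from 90.1 CPM in cluster 5, which also carried the most macrophage marker counts of the 3 (1790 CPM beside 433 at the lowest), to 178 in cluster 4. All lay above both other libraries, but the 1.51-fold (1.42 to 1.61) excess of Ob over Ctrl was lost without cluster 4 (log2 0.31) or cluster 7 (log2 0.54).

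In other classes Pdk4 had low counts. In macrophage-like clusters it stood at 15.8%, 14.7% and 18.6% of its adipocyte-like level, beside 20.9%, 14.03% and 22.1% for the summed adipocyte markers, so the values of the class are not read as expression of these cells. Macrophage-like clusters read 12.98, 4.23 and 23.1 CPM, from 62, 15 and 505 counts, and mesothelial-like clusters 21.9, 5.99 and 20.97 CPM, from 123, 14 and 58 counts. Ob over Mid_Ob was 5.47-fold (3.28 to 9.84) in the first and 3.50-fold (1.93 to 6.80) in the second. Mesothelial-like clusters held 26.7%, 20.9% and 16.9% of the adipocyte-like level of Pdk4, beside 11.3%, 10.4% and 14.97% for the markers. The value of Ob was thus near the marker level, and the part of adipocyte RNA in the ratio was not tested. The macrophage-like fall rested on cluster 9 of Ctrl, at 20.8 CPM beside 4.40 in cluster 11, since the log2 ratio of -1.62 was -0.06 without it. Ob over Ctrl in that class, a log2 of 0.83, was 2.39 without cluster 9 and 0.15 without cluster 11. Fibroblast or progenitor-like clusters read 5.20 CPM (8 counts) in Mid_Ob and 21.4 in Ob. These were 18.1% and 17.2% of the adipocyte-like level, beside 9.52% and 14.2% for the markers. Lymphocyte-like nuclei of Mid_Ob held 0 counts of Pdk4, which allows up to 6.605 CPM, beside 7 in Ctrl and 10 in Ob. Adipocyte-like clusters carried 67.6%, 89.3% and 87.0% of Pdk4 counts, and all 3 libraries had them in the lead.

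**Figure D3:**
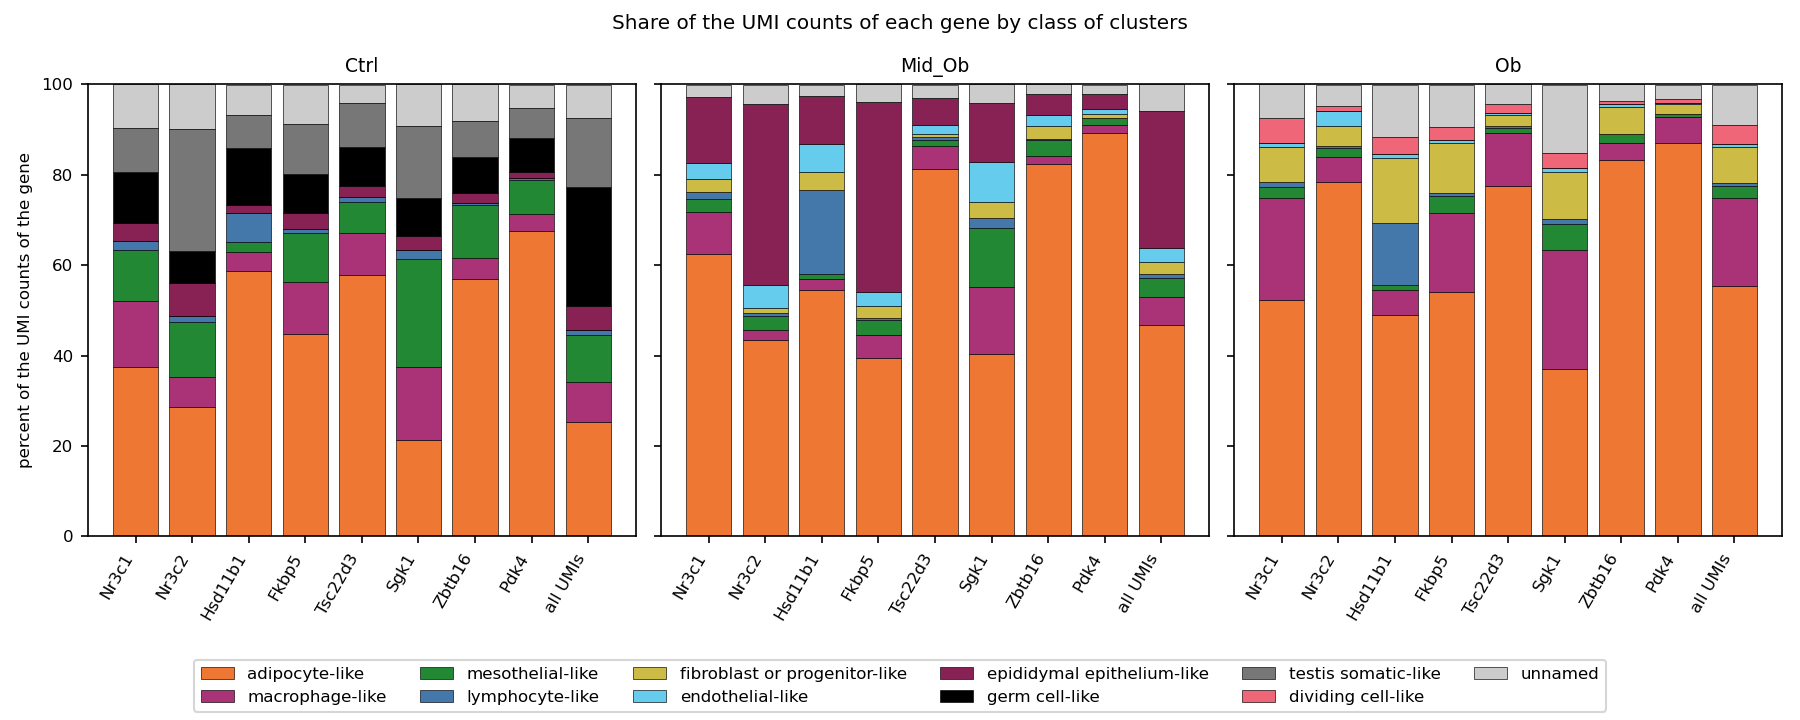
Share of the UMI counts of each gene, in percent, that lies in each class of clusters, with the share of all UMIs in the last bar of each library. Zbtb16, Tsc22d3 and Pdk4 have a larger adipocyte-like share than all UMIs in each library, and Sgk1 a smaller one.

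Counted over the 8 genes, Mid_Ob against Ctrl was a comparison with mostly lower levels. In adipocyte-like clusters 6 genes were lower (Hsd11b1, Fkbp5, Zbtb16, Pdk4, Sgk1 and Tsc22d3) and none higher, where 20.2% of all genes with enough counts were lower and 15.3% higher. In macrophage-like clusters 4 were lower (14.8% of all genes) and none higher (8.71%), in mesothelial-like clusters 4 lower (12.3%) and none higher (8.06%), and in lymphocyte-like clusters 3 lower (14%) and 1 higher (11.8%). Over the whole library 5 were lower (35.5%) and 1, Nr3c2, higher (17.3%). Counted in either direction, the shares of all genes were 52.8% in the library and 35.5%, 23.5%, 20.3% and 25.8% in the adipocyte-like, macrophage-like, mesothelial-like and lymphocyte-like classes. By these counts Fkbp5 and Zbtb16 were the genes called lower in all of these. The calls of Zbtb16 in macrophage-like and lymphocyte-like clusters, and of Pdk4 and Hsd11b1 in macrophage-like ones, are not read as change in those cells. Scaling by the median gene ratio took Fkbp5 and Sgk1 in the library to a log2 of -0.54, short of the limit. Without testis and epididymis clusters Fkbp5 stood at -1.51 there in place of -0.70. As the genes were chosen on these levels, nothing is read from the counts against the background.

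Ob against Mid_Ob had fewer differences, and they were of both signs. Pdk4 was the only gene past the limit in adipocyte-like clusters, higher, beside 15.3% of all genes higher and 19% lower. In macrophage-like clusters Pdk4 was higher (13.1% of all genes) and Nr3c2 and Zbtb16 lower (18.4%). The calls of Pdk4 and Zbtb16 there are not read as change in those cells, and Nr3c2 of Ob was near the adipocyte marker level there. In mesothelial-like clusters Pdk4 and Tsc22d3 were higher (13.3%) and Nr3c2 lower (9.58%). In lymphocyte-like clusters Sgk1 was called higher at 1.56-fold, with an interval from 0.93 to 2.69 that includes no difference (11.5%), and Nr3c2 lower (11%). In fibroblast or progenitor-like clusters Pdk4 and Sgk1 were higher (18.6%) and Nr3c2 lower (13.4%). Pdk4 of Ob was near the adipocyte marker level in mesothelial-like and fibroblast or progenitor-like clusters, as given above. In endothelial-like clusters none was higher (13.3%), and Hsd11b1 was called lower at 1.51-fold (19.8%) with an interval from 0.81 to 3.04. Nr3c2 was thus lower in Ob in 4 of the 6 classes. Near the limit, adipocyte-like Nr3c2 and Sgk1 passed it without cluster 4 of Ob (log2 -0.65 and 0.67), Sgk1 also without cluster 7 (0.59) and Fkbp5 without cluster 5 (-0.62). Tsc22d3 and Zbtb16 passed it in fibroblast or progenitor-like clusters without cluster 8 (1.01 and -0.81), and endothelial-like Fkbp5 without cluster 21 (-1.24). At the library level Sgk1 and Pdk4 were higher (17.5%) and Nr3c2 and Fkbp5 lower (27.3%), and the call of Fkbp5 was lost without testis and epididymis clusters, at a log2 of -0.44. In either direction the shares of all genes were 44.9% in the library, 34.4% in adipocyte-like, 31.5% in macrophage-like, 22.8% in mesothelial-like, 22.5% in lymphocyte-like, 32% in fibroblast or progenitor-like and 33.1% in endothelial-like clusters.

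Ob against Ctrl shares both libraries with the comparisons above. In adipocyte-like clusters Fkbp5, Hsd11b1, Zbtb16 and Tsc22d3 were lower (27.6% of all genes) and Pdk4 higher (18.8%). In macrophage-like clusters 5 genes were lower (24.1%) and 1 higher (13.7%), in mesothelial-like clusters 3 lower (18.1%) and none higher (15.3%), and in lymphocyte-like clusters 4 lower (19.2%) and 1, Hsd11b1, higher (17.4%). Among these, Zbtb16 in macrophage-like and lymphocyte-like clusters, and Hsd11b1 and Pdk4 in macrophage-like ones, are not read as change in those cells. Macrophage-like Nr3c2 of Ob was near the adipocyte marker level, as given above. At the library level 3 were lower (43.5%) and Pdk4 higher (18.1%). In either direction the shares of all genes were 61.6% in the library and 46.5%, 37.7%, 33.3% and 36.6% in the 4 classes in the same order. Without testis and epididymis clusters the library log2 ratio went from -1.18 to -1.81 for Zbtb16 and from 1.37 to 0.69 for Pdk4, and scaling by the median gene ratio put Hsd11b1 at -0.41, short of the limit. Over whole libraries the median gene moved by a log2 of -0.16 in Mid_Ob and -0.35 in Ob relative to Ctrl, and in adipocyte-like clusters by -0.08 and -0.12.

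Adipocyte transcripts were present in clusters that were not adipocyte-like, and the levels of the 8 genes are set beside them. In macrophage-like clusters of Ctrl the 16 adipocyte markers summed to 20.9% of their adipocyte-like level, while Zbtb16 stood at 24.04%, Pdk4 at 15.8%, Tsc22d3 at 46.2% and Fkbp5 at 73.8%. Germ cell-like clusters had 13.2% of the markers and 13.4% of Zbtb16, and lymphocyte-like nuclei of Ctrl 16.5% and 12.7%. In these classes the share of Zbtb16 was close to that of the adipocyte markers and is not read as expression in those cells. Mesothelial-like clusters differed, with 11.3%, 10.4% and 14.97% of the markers but 49.96%, 49.8% and 53.4% of Zbtb16. Fibroblast or progenitor-like clusters held 9.52% and 14.2% of the markers beside 62.8% and 50.1% of Zbtb16.

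Counted over clusters, Zbtb16 exceeded the marker level by over 2 times in 3 of 13 clusters of Ctrl that were not adipocyte-like, 3 of 10 of Mid_Ob and 6 of 18 of Ob. Pdk4 did so in 3, 1 and 1, and Tsc22d3 in 4, 3 and 7. Fkbp5 did so in 7, 9 and 13, and Sgk1 in 13, 10 and 17. The levels of Fkbp5 and Sgk1 outside adipocytes were thus mostly above what the adipocyte markers showed, and those of Pdk4 mostly were not. The part that adipocyte RNA had in these levels was not tested.

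**Figure D4:**
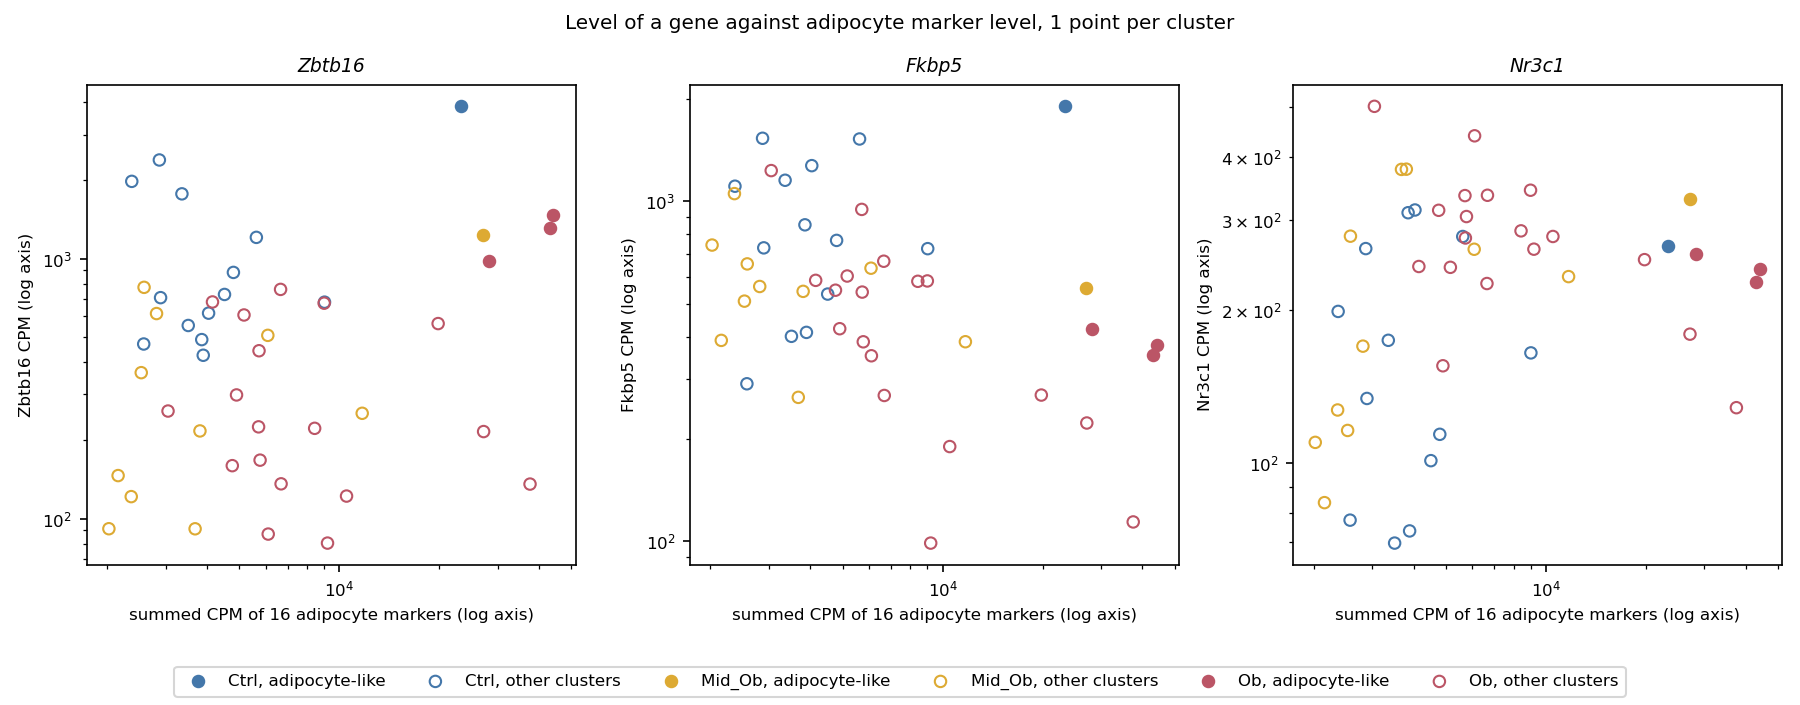
CPM of Zbtb16, Fkbp5 and Nr3c1 against the summed CPM of 16 adipocyte markers, both on log axes, with 1 point for each of the 46 clusters. Filled points are adipocyte-like clusters and colours mark the library. For Zbtb16 the highest open points are unnamed cluster 4 of Ctrl at 2394 CPM and the mesothelial-like clusters of Ctrl at 1774 and 1981 CPM. For Nr3c1 the adipocyte-like clusters lie among the others.

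The rest of the pathway was read from 3 lists of genes written with earlier results of these data known. Of 24 other glucocorticoid-induced genes, all with enough counts, 2 were higher and 7 lower in adipocyte-like clusters of Mid_Ob than of Ctrl, with a median log2 ratio of -0.35 beside -0.08 over all genes, of which 15.3% were higher and 20.2% lower. Foxo1, a transcription factor of fasting, fell from 1221 to 535 CPM, a ratio of 2.28 (2.23 to 2.33), Lpin1, a lipid phosphatase, from 876 to 489 CPM, and Hif3a, a hypoxia factor, from 60.6 to 18.2 CPM. Several classical targets stayed within 1.5-fold. Per1, a clock gene, read 57.4 and 51.6 CPM, Klf9, a transcription factor, 165 and 133 CPM, and Klf15, a regulator of amino acid use, 49.7 and 40.6 CPM. Lcn2, the iron-binding protein lipocalin, was higher, at 37.0 beside 6.83 CPM, in the cluster that held 2520 CPM of epididymal markers. Foxo1, Lpin1, Per1 and Klf9 were picked after their values were seen.

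From Mid_Ob to Ob the list turned upward while Fkbp5 and Zbtb16 did not. In adipocyte-like clusters 11 genes were higher and 4 lower, with a median log2 ratio of 0.41 beside -0.03 over all genes, of which 15.3% were higher and 19% lower. Angptl4, an inhibitor of lipoprotein lipase, rose 2.63-fold (2.50 to 2.78), from 58.1 to 153 CPM, Dusp1, a phosphatase of MAP kinases, 2.18-fold (2.01 to 2.36), and Anxa1, annexin A1, 2.08-fold (2.01 to 2.17). Klf15 fell 2.33-fold (2.14 to 2.54), Ddit4, an inhibitor of the mTOR pathway, 1.88-fold (1.70 to 2.08), Hif3a 3.22-fold (2.80 to 3.70) and Lcn2 26.6-fold (21.3 to 33.6). Against Ctrl, 9 were higher and 7 lower, beside 18.8% and 27.6% of all genes, with Irs2, an insulin receptor substrate, at 2.74-fold (2.54 to 2.97) higher and Hif3a 10.7-fold (9.44 to 12.2) lower. At the library level the list gave 3 higher and 5 lower for Mid_Ob over Ctrl (17.3% and 35.5% of all genes), 12 and 4 for Ob over Mid_Ob (17.5% and 27.3%), and 12 and 6 for Ob over Ctrl (18.1% and 43.5%). Mt2, a metallothionein, was 4.09-fold (3.85 to 4.35) lower in the Mid_Ob library than in Ctrl, and Rgs2, a regulator of G protein signalling, 3.23-fold (2.92 to 3.59) higher in Ob than in Mid_Ob.

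**Figure D5:**
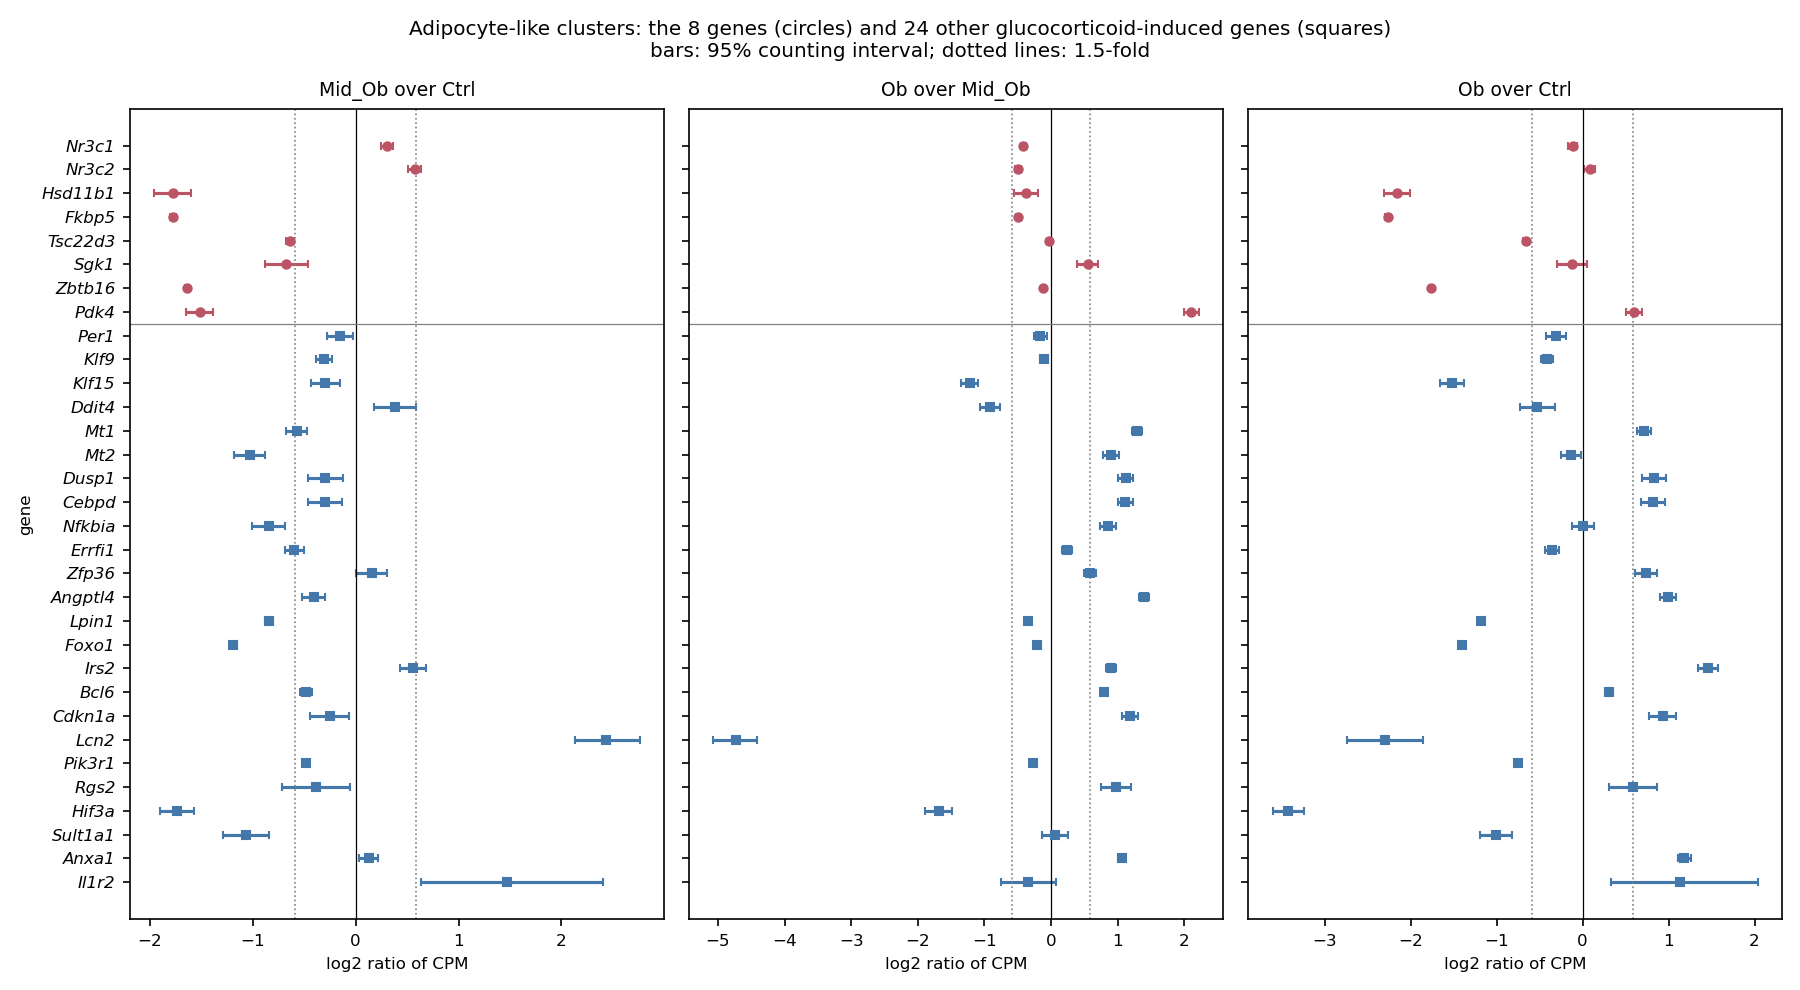
Log2 ratio of CPM in adipocyte-like clusters for the 8 genes (circles) and 24 other glucocorticoid-induced genes (squares) in the 3 comparisons, with 95% counting intervals and dotted lines at 1.5-fold. Of the 8 genes 6 lie left of the line for Mid_Ob over Ctrl, and Pdk4 alone lies right of it for Ob over Mid_Ob.

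Of 16 partners of the receptor, which are chaperones, coactivators and corepressors, 1 was lower in adipocyte-like clusters of Mid_Ob than of Ctrl (20.2% of all genes) and none higher (15.3%). It was Hsp90aa1, the inducible heat shock protein 90, at 28.4 beside 54.0 CPM, 1.90-fold (1.72 to 2.11) lower. From Mid_Ob to Ob 1 was higher and 2 lower, beside 15.3% and 19% of all genes. Nrip1, a corepressor of metabolic genes, rose 1.60-fold (1.58 to 1.62), and Fkbp4, the co-chaperone that opposes Fkbp5, fell 1.98-fold (1.73 to 2.27), from 15.1 to 7.60 CPM. Library counts were 0 higher and 2 lower for Mid_Ob over Ctrl, 0 and 2 for Ob over Mid_Ob, and 2 and 3 for Ob over Ctrl, against the same library shares of all genes as for the list above.

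Steroid metabolism and sex steroid receptors made up the third list, of which 8 of 9 genes had enough counts in the libraries. Mid_Ob over Ctrl gave 6 higher and none lower (17.3% and 35.5% of all genes), Ob over Mid_Ob none higher and 5 lower (17.5% and 27.3%), and Ob over Ctrl 1 higher and 3 lower (18.1% and 43.5%). In Mid_Ob, Srd5a2, a steroid 5-alpha reductase, was 8.63-fold (7.83 to 9.54) higher than in Ctrl. In Ob it was 16.9-fold (15.4 to 18.7) lower than in Mid_Ob. Epididymal epithelium-like clusters held 30.3% of the UMIs of Mid_Ob, 5.32% in Ctrl and none named so in Ob, and their part in these values was not tested. Hsd11b2, the enzyme that inactivates corticosterone, had 3, 19 and 26 counts in the adipocyte-like clusters, too few to compare.

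Across the 46 clusters, with levels centred within each library, each gene was matched to the genes most like it among 9443 with at least 500 counts in every library. The points are clusters that share libraries and depth, so the coefficients are descriptive. Zbtb16 had the closest matches, Kirrel and Ctif at a Pearson r of 0.92 and Rbfox2 at 0.89. Nr3c1 went with Klf13, Stat5b and Arhgef1 (0.88 each), Nr3c2 with Tanc1 (0.88), Dock9 and Magi1 (0.82 each), and Sgk1 with Pdcd6ip, Klf6 and Ifnar2 (0.85 each). Hsd11b1 went with Ets1 (0.83), Gimap8 (0.77) and Ikzf3 (0.76). Tsc22d3 went with Ccdc152 and Paox (0.83 each) and C9orf72 (0.81), Pdk4 with Adcy5 (0.84), Aifm2 and Lrp3 (0.81 each), and Fkbp5 had the loosest, Lrp6 (0.78), Svil and Chd9 (0.75 each). The coefficients among the 8 genes themselves were not picked as the highest of 9443, so they cannot be set against those above. Zbtb16 and Pdk4 reached 0.73, Tsc22d3 and Pdk4 0.66, Nr3c1 and Sgk1 0.61 and Nr3c2 and Zbtb16 0.57, while Hsd11b1 stayed between -0.05 and 0.40 with every other gene.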

How the data were processed

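Epididymal fat tissue of 8 mice was combined for each of Ctrl, Mid_Ob and Ob, giving 1 droplet library of nuclei per stage. Cell Ranger was run by the authors, who deposited 1 table per library with 3 columns per cluster. Of these, the deposited signal is a mean count per cluster, the UMIs of a gene over the summed size factors of the nuclei. The log2 and adjusted p-value columns, the authors' deposited contrasts of a cluster with the other nuclei, were not used. The build used for alignment is not given in the sources used here. The study states filters on UMIs, mitochondrial share and doublets, but not whether they came before these tables, and no doublets were removed here.

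The smallest step between values in a cluster gave whole counts (100% whole within 0.001 counts), and the medians were 4472, 6676 and 3946 UMIs per nucleus. Counts were divided by all UMIs to give CPM. Ratios had conditional binomial intervals, and 3 counts replaced 0. The deposited mean count ranks clusters as CPM does, by construction. Recovery and intervals were tested on simulated data. Of 29625 identifiers 29593 (99.9%) matched GENCODE M21.

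The 8 genes, the lists and the markers were chosen with earlier results of these data known. Named genes were the 8, up to 4 highest and 4 lowest called genes of each list in a library comparison, and for each of the 8 the 3 most alike over clusters by log2(CPM + 1), with exceptions stated, and some genes of the lists are not reported here by name. Alternatives covered scaling, count minimums of 10 and 500, a 2-fold limit, equal cluster weights, and leaving out clusters or mitochondrial genes. Scripts ran in Python 3.11.15 with pandas 2.3.3, numpy 2.4.6, scipy 1.17.1 and, for plots, matplotlib 3.10.9.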

Additional observations from a re-analysis of the deposited data

Results flagged for a closer look

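Hsd11b1 moved in opposite directions in different classes of clusters. For Mid_Ob over Ctrl its log2 ratio of CPM was -1.78 in adipocyte-like and -0.94 in macrophage-like clusters but 1.03 in lymphocyte-like ones. For Ob over Ctrl it was -2.16 in adipocyte-like and -1.47 in macrophage-like clusters and 1.15 in lymphocyte-like ones. In macrophage-like clusters of Ctrl Hsd11b1 stood at 19.7% of its adipocyte-like level, beside 20.9% for the summed adipocyte markers. The macrophage-like ratios are therefore not read as change in these cells. With 1 library per stage the difference between the classes was not tested. Lymphocyte markers in the lymphocyte-like clusters summed to 3005, 5833 and 8678 CPM over the stages, and their part was not tested. Macrophage markers over 2-fold numbered 12 in the lymphocyte-like cluster of Ctrl, beside 2 in Mid_Ob and 0 in Ob, and their part was not tested either.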

How the results depend on the processing

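Of 656 recomputed ratios of the 8 genes, 56 crossed the 1.5-fold limit. Smaller changes of sign were not counted, such as library Nr3c2 for Ob over Ctrl, from a log2 of -0.23 to 0.12 with median scaling. Among ratios that crossed the limit or moved by over 1.5 times, 6 changed sign. Of these 6, Nr3c2 in macrophage-like clusters went to 0.43 for Mid_Ob over Ctrl without cluster 9 of Ctrl and in endothelial-like ones to -1.39 for Ob over Mid_Ob without cluster 21 of Ob, and Fkbp5 in macrophage-like clusters to 0.08 for Ob over Mid_Ob with equal weights. Hsd11b1 turned over with equal weight for every cluster, to a log2 of 0.62 for Mid_Ob over Ctrl and 0.23 for Ob over Ctrl in the whole library, and to 0.28 for Mid_Ob over Ctrl in macrophage-like clusters without cluster 9 of Ctrl, while it was -1.54 without cluster 11. The cause was not tested.

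A 2-fold limit left 2 members called for Mid_Ob over Ctrl and 2 for Ob over Mid_Ob in the library. Within classes it left 1 (mesothelial-like), 1 (lymphocyte-like), 1 (fibroblast or progenitor-like) and 0 (endothelial-like) for Ob over Mid_Ob, and 3 (adipocyte-like) and 1 (mesothelial-like) for Ob over Ctrl. In the library it left 1 receptor partner and 4 other glucocorticoid-induced genes for Mid_Ob over Ctrl, where the main counts were 2 and 8. For Ob over Ctrl in the library it left 2 receptor partners and 0 of the steroid list, where the main counts were 5 and 4. At 500 counts 2 members stayed in macrophage-like and 1 in lymphocyte-like clusters for Mid_Ob over Ctrl, 0, 1 and 0 in lymphocyte-like, fibroblast or progenitor-like and endothelial-like ones for Ob over Mid_Ob, and 1 in lymphocyte-like ones for Ob over Ctrl, since fewer genes reach that minimum. At 10 counts 2 were called in endothelial-like clusters. Equal cluster weights gave 1 receptor partner for Mid_Ob over Ctrl and 2 steroid genes for Ob over Ctrl, and leaving out testis and epididymis clusters gave 1 and 2 receptor partners. Leaving out each cluster in turn gave 2 to 3 members in adipocyte-like, up to 5 in fibroblast or progenitor-like (without cluster 8 of Ob) and 2 in endothelial-like clusters for Ob over Mid_Ob, where the main counts were 1, 3 and 1.

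Of 24 genes named as most alike, 17 stayed with log2(CPM + 10). No paired analysis was possible because the labels give no replicate numbers and each stage has 1 library. Differences between mice, the hour of sampling, free RNA and the makeup of the dissected tissue cannot be told apart from the stage.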
